A study of Mus musculus with 8 samples.

Results

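Broad domains of H3K27me3 were described in mouse morulae injected with mRNA for Kdm6bMUT, a mutant form of the demethylase Kdm6b. A domain here is an autosomal peak at least 10 kb wide in the Kdm6bMUT peak list. Domains were thus chosen by their measured width, and their widths, places and deposited values in that list are a description only. The rule gave 3799 domains out of 88804 autosomal peaks and 90158 peaks in all. The Kdm6bWT list, which the rule did not use, comes from morulae injected with mRNA for Kdm6bWT and held 4788 autosomal peaks. The question set by the design is what part of H3K27me3 was still detected once the active enzyme had been supplied.

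The series has 8 samples, of which 2 H3K27me3 ChIP libraries, each called against input, were used here through their peak lists. The 4 RNA-seq samples of blastocysts were not analysed here. Both ChIP groups carry the strain label BDF1xPWK and came from oocytes of BDF1 females 8 weeks old; the mRNA, at 1.8 µg/µl, was injected from 2.5 hours after fertilization and finished by 4 hours. The injection protocol names BDF1 sperm, whereas the strain label names PWK. The 2 input samples are labelled as not injected, although their titles name an injection. How many embryos went into a ChIP library is not given in the sources used here. The mRNA was injected into whole zygotes, so the enzyme was not limited to a cell type or locus. Chromatin was profiled by ultra-low-input native ChIP-seq, which precipitates nuclease-cut chromatin without crosslinking from small numbers of cells. Each injection has 1 library, so no difference has a replicate check and no p-value is given. Intervals are 95% exact intervals for counting error alone, and peaks that lie close together are not independent. Depth is unknown, because the lists hold no read counts. How much the depth of the Kdm6bWT library sets the number of its peaks was not tested.

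H3K27me3 is laid down by Polycomb repressive complex 2 and marks repressed chromatin. Kdm6b (also called JMJD3) removes methyl groups from this lysine. In mouse oocytes the mark spreads over broad regions away from most promoters, and early embryos inherit it on the maternal chromosomes. There it keeps a small set of genes, Xist among them, silent on the maternal copy. No genome or gene annotation of the lists' build, mm9, was used here, so domains are given by mm9 position, counted from 1, with neither genes nor sequence placed on them.

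Broad domains were a small share of the Kdm6bMUT peaks and a large share of the marked bases. They made up 4.28% of the autosomal peaks, covered 58.9 Mb and held 23.8% of the bases in peaks. This was 2.45% of the autosomal length, measured on each chromosome from the first to the last peak of either list. The median domain was 13373 bases wide, with quartiles of 11423 and 17217 bases. Most domains lay near the limit: 2386 (62.8%) were narrower than 15 kb, and 825 (21.7%) measured 15 to 20 kb. A further 445 measured 20 to 30 kb, 129 measured 30 to 50 kb, and 14 reached 50 kb or more.

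The enrichment of the domains lay in a narrow range. Their fold enrichment over input, as deposited by the authors, had a median of 3.34 (quartiles 3.23 and 3.45, lowest 2.27, highest 4.02). Over all autosomal Kdm6bMUT peaks the median was 3.07, and single peaks reached 6.56. The deposited score, which in 99.998% of the Kdm6bMUT peaks is 10 times the −log10 q rounded down, had a median of 21 in domains and 18 in all autosomal peaks. No domain scored above 31, whereas the highest autosomal score was 308. The highest values of the list belonged to narrower peaks. The limit of 10 kb marked no step in these values. The 439 peaks of 9500 to 9999 bases had a median fold of 3.28 and the 384 of 10000 to 10499 bases a median of 3.29. Of these, 42 (9.57%) and 34 (8.85%) shared a base with a Kdm6bWT peak.

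The 5 widest domains showed how far single peaks extended. Kdm6bWT peaks covered between 0% and 2.23% of each. Over all domains they covered 0.682% of the bases, so low coverage was not particular to these 5. The widest spanned 91.8 kb on chromosome 6 (118965425 to 119057236) with a fold of 3.56. It held 3 Kdm6bWT peaks of 1029, 704 and 312 bases, which together covered 2.23% of it. The second, 78.8 kb on chromosome 13 (42789406 to 42868213), had a fold of 3.46 and held none. The third, 78.7 kb on chromosome 7 (124604606 to 124683281), had a fold of 3.50 and a single Kdm6bWT peak of 1286 bases. Those on chromosome 12 (107676094 to 107747709, 71.6 kb) and chromosome 3 (146678287 to 146743494, 65.2 kb) held none. All 5 lay in groups of several broad domains, from 5 on chromosome 12 to 15 on chromosome 3.

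Broad domains were present on every autosome, at unequal density. They numbered 1.58 per Mb over the autosomes together. Chromosome 17 had the highest density with 2.19 per Mb (interval 1.90 to 2.51, 200 domains). Chromosomes 11, 7 and 9 followed with 2.18, 2.13 and 2.06 per Mb, and the intervals of these 4 overlapped. Chromosome 19 had the lowest density, with 26 domains or 0.448 per Mb (0.293 to 0.657). Chromosome 10 was next lowest with 1.01 per Mb (0.842 to 1.20), and those 2 intervals did not overlap. The ratio of the highest to the lowest density was 4.89, or 2.17 without chromosome 19, an alternative added after its value was seen.

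The unevenness was larger for broad domains than for narrower peaks of the same list. As a measure of equal number, the 3799 next widest autosomal peaks (7020 to 9999 bases) were taken. Their density differed by a factor of 2.78 between chromosomes, and that of all autosomal peaks by 1.59. Chromosome 19 was the lowest each time. Without it, the next widest peaks ranged from 1.17 per Mb on chromosome 10 to 1.97 on chromosome 9. Broad domains ranged from 1.01 to 2.19 per Mb, and all autosomal peaks from 32.4 on chromosome 10 to 43.5 on chromosome 14. Broad domains held 30.7% of the marked bases on chromosome 7 and 29.7% on chromosome 11, against 17.9% on chromosome 10 and 11.3% on chromosome 19. The median width of a domain varied little, from 12317.5 bases on chromosome 16 to 14053 bases on chromosome 6. Chromosomes thus differed mainly in how many broad domains they had.

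**Figure D1:**
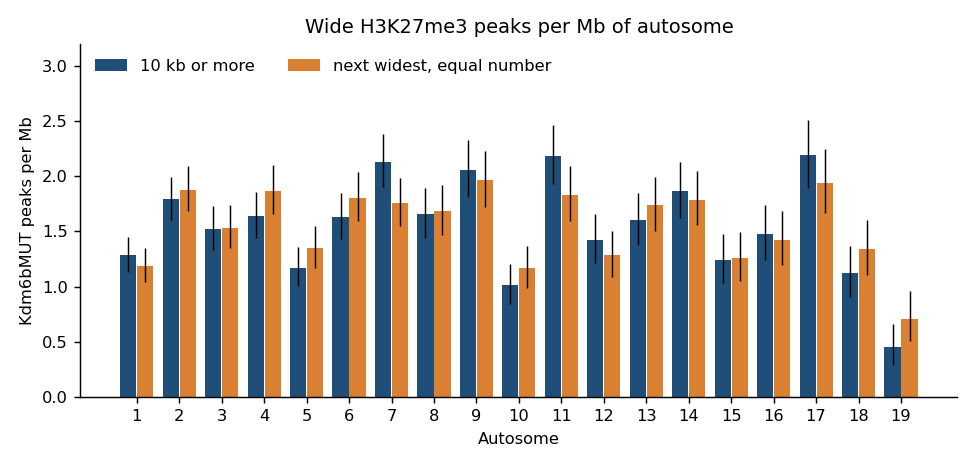
Number of Kdm6bMUT peaks per Mb on each autosome, for domains of 10 kb or more (dark bars) and the equally many next widest peaks (orange bars), with 95% exact Poisson intervals as lines. Chromosome 17 stands highest at 2.19 domains per Mb and chromosome 19 lowest at 0.448.

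Along the chromosomes, broad domains were scarce toward the low-coordinate end, where mouse autosomes have their centromere. When each autosome was divided into 10 equal parts, the first held 36 domains (0.948%) and the second 78 (2.05%). The last and the last but 1 held 609 (16.0%) and 615 (16.2%). The next widest peaks were spread in much the same way, with 1.71% and 2.21% in the first and second parts and 16.4% in the last. All autosomal Kdm6bMUT peaks showed a milder form, with 3.28% in the first part and 12.0% in the last. Each autosome also had a long stretch free of broad domains, from 7.38 Mb on chromosome 9 to 25.03 Mb on chromosome 7. That on chromosome 7 (6832351 to 31860892) still held 177 narrower peaks, which covered 1.14% of it. The one on chromosome 2 (78535326 to 91904744, 13.4 Mb) held 517 narrower peaks over 6.08% of its length.

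Broad domains were gathered in few places. Of 2420 windows of 1 Mb, 1536 (63.5%) held no broad domain, and 161 windows (6.65%) sufficed to hold 50% of them. The next widest peaks left 54.5% of the windows empty and needed 241 windows for the same share. Windows with at least 10 broad domains numbered 113 and held 1494 of them (39.3%). For the next widest peaks, 55 such windows held 17.1%.

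Neighbouring broad domains were often close together. The median gap from the edge of a domain to the next was 36.5 kb (quartiles 10.8 and 205 kb), against 87.0 kb (27.1 and 415 kb) for the next widest peaks. Gaps below 50 kb made up 56.7% of all gaps between broad domains and 37.4% of those between the next widest peaks. At 1 Mb the shares were close, 87.1% and 84.8%. The closer spacing therefore lay at short range. The smallest gap was 1201 bases, and no smaller gap occurs anywhere in the list, so the edges of close neighbours may rest on the caller's joining distance. This was not tested apart from the merging given among the alternatives.

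**Figure D2:**
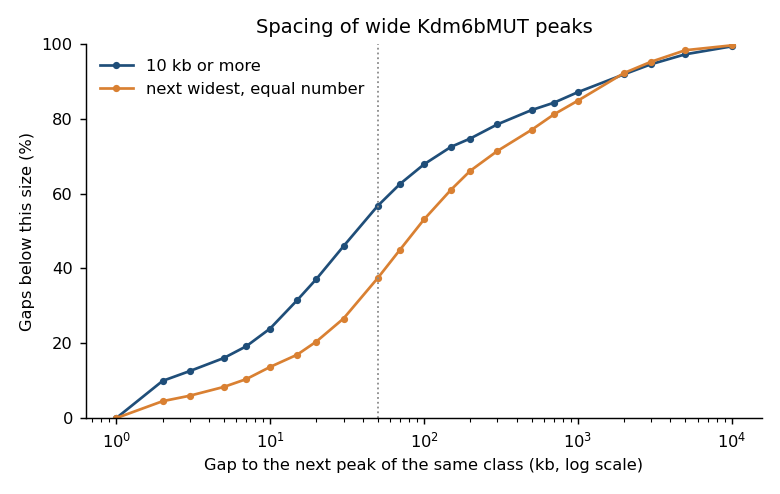
Cumulative share of gaps (in %, vertical axis) below a given size (kb, log scale) between neighbouring Kdm6bMUT peaks of the same class on a chromosome. The dotted line marks 50 kb, where 56.7% of gaps between domains of 10 kb or more (dark) and 37.4% of gaps between the next widest peaks (orange) are smaller.

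Most broad domains belonged to groups, defined as runs of at least 2 with every gap below 50 kb. There were 751 groups with 2895 domains (76.2%), and 904 domains stood alone. Of the next widest peaks, 59.0% were grouped by the same rule. Pairs were the commonest form, with 339 groups. At the other end, 185 groups had 5 or more domains and held 1451 of them (38.2%), and 40 groups had 10 or more. The next widest peaks formed 54 groups of 5 or more and 3 of 10 or more. A group of broad domains had a median length of 73.5 kb (quartiles 47.9 and 134 kb). Broad domains filled a median of 58.6% of the group's length, and all Kdm6bMUT peaks together filled 79.8%. The groups were thus long marked stretches with short gaps without a called peak.

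The largest group lay on chromosome 7 (143157584 to 143939932) and was also the longest, with 24 domains over 782 kb. Peaks of any width filled 83.7% of it. Its 24 domains summed to 489 kb, and only 323 bases of them lay in a Kdm6bWT peak, the single one centred in a domain. The Kdm6bWT list had 5 peaks within the whole stretch, so 4 were centred between the broad domains. Each of these 4 lay within a narrower Kdm6bMUT peak. The group on chromosome 11 (67084064 to 67628045) had 22 domains over 544 kb, of which 0.341% of the domain bases lay in Kdm6bWT peaks. On chromosome 16 (92518549 to 93198782) 20 domains extended over 680 kb, with 4 Kdm6bWT peak centres and 0.519% of the domain bases. The third longest group, on chromosome 1 (122485780 to 123095085), had 18 domains over 609 kb, with 5 Kdm6bWT peak centres and 0.610% of the bases. In all 4 groups nearly all of the domain length was outside the Kdm6bWT peaks. This was not particular to large groups. The share of bases in Kdm6bWT peaks was 0.682% over all domains and 0.563% in Kdm6bMUT peaks under 10 kb.

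**Figure D3:**
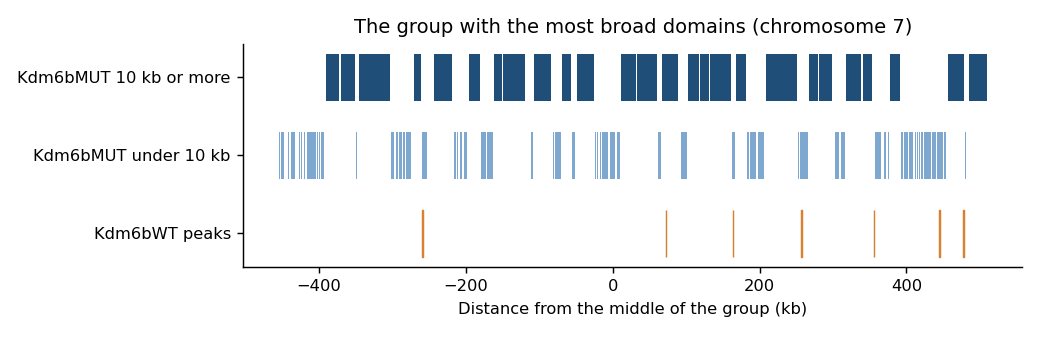
Peaks of the chromosome 7 group and 100 kb on either side, by distance from the middle of the group (kb): Kdm6bMUT domains of 10 kb or more (top row, 24 of them in the group), narrower Kdm6bMUT peaks (middle) and Kdm6bWT peaks (bottom). The Kdm6bWT row shows 7 short peaks, 5 of them within the group, under an almost continuous run of Kdm6bMUT peaks.

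Few broad domains held any Kdm6bWT peak. Of 3799 domains, 532 (14.0%, interval 12.9% to 15.1%) shared at least 1 base with a Kdm6bWT peak, and 3267 did not. Among all autosomal Kdm6bMUT peaks the share was 2.63%, and among the next widest peaks 7.69% (6.86% to 8.58%). A wide peak offers more bases to touch, so these shares were also set per length. Broad domains held 561 Kdm6bWT peak centres, or 9.52 per Mb (8.75 to 10.3), and the next widest peaks 291, or 9.24 per Mb (8.205 to 10.4). Kdm6bMUT peaks under 10 kb held 7.80 per Mb (7.40 to 8.20), and the autosomes as a whole 1.99 per Mb. Per length, broad domains and the next widest peaks had overlapping intervals, and both lay above all peaks under 10 kb pooled. Of the 2031 Kdm6bWT peaks centred in any autosomal Kdm6bMUT peak, 27.6% lay in broad domains, which hold 23.8% of those bases. These 2031 were 42.4% of the 4788 autosomal Kdm6bWT peaks, and the other 2757 were centred in no Kdm6bMUT peak.

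Where a domain held a Kdm6bWT peak, it was usually a single short one. The number of Kdm6bWT peak centres was 0 in 3279 domains, 1 in 486, 2 in 28, 3 in 5 and 4 in a single domain. The touched domains had a median of 579 bases in Kdm6bWT peaks (quartiles 323 and 1034), or 3.65% of the domain. The highest share in any domain was 24.9%. Over all domains, Kdm6bWT peaks covered 402 kb, or 0.682% of the bases. The share was 0.657% in the next widest peaks and 0.563% in all Kdm6bMUT peaks under 10 kb, so low coverage was not particular to broad domains. The 41 gaps between neighbouring Kdm6bWT peaks centred in the same domain had a median of 5590 bases (lowest 1209, highest 18100).

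The domains richest in Kdm6bWT peaks ranged widely in width. At least 3 centres lay in 6 domains, and the 5 given here are those with the most centres and, among ties, the most bases in Kdm6bWT peaks. A domain of 22.7 kb on chromosome 17 (69402993 to 69425723, fold 3.28) had 4 Kdm6bWT peaks of 300, 1505, 301 and 2502 bases, which covered 17.2% of it. The last of these crossed the domain's edge. On chromosome 15 a domain of 16.4 kb (85256220 to 85272604) had 3, of 1374, 1749 and 951 bases, and at 24.9% was the most covered of all. A domain of 17.3 kb on chromosome 3 (97630476 to 97647790), which stood alone, had 3 that covered 13.5% of it. One of 25.8 kb on chromosome 6 (92813272 to 92839049) had 3 that covered 8.20%. The fifth was the widest domain, on the same chromosome. At the other extreme, the widest domains untouched by a Kdm6bWT peak included, beside those on chromosomes 13, 12 and 3 above, one of 62.4 kb on chromosome 11 (80850115 to 80912489). A domain of 61.4 kb on chromosome 8 (96336315 to 96397694) was untouched as well.

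Touched domains were wider than untouched ones and otherwise similar. Their median width was 14987 bases (quartiles 12188.5 and 19795.5), against 13209 bases (11312 and 16758) for the 3267 others. The median fold enrichment in the Kdm6bMUT list was 3.35 and 3.33, and the median score 22 and 21. In groups lay 80.1% of the touched and 75.6% of the untouched domains. Within groups, a domain next to a touched domain was itself touched in 16.3% of 652 cases, and next to an untouched domain in 15.02% of 3636. Each pair of neighbours enters these counts from both sides.

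The share of domains touched rose with their width, whereas the number of Kdm6bWT peaks per Mb did not. The share was 11.2% (interval 9.99% to 12.6%) at 10 to 15 kb, 16.4% (13.9% to 19.1%) at 15 to 20 kb, 20.4% (16.8% to 24.5%) at 20 to 30 kb and 26.6% (19.5% to 34.6%) at 30 kb or more. Over the same classes, Kdm6bWT peak centres numbered 9.43, 10.3, 9.69 and 7.65 per Mb. The last value rests on 42 peaks in 143 domains, and its interval of 5.51 to 10.3 overlaps those of the other 3. Below 10 kb the density was lower in narrow peaks, with 6.34 per Mb (5.74 to 6.998) at 1 to 3 kb and 8.37 (7.55 to 9.25) at 3 to 5 kb. It was 9.08 (8.06 to 10.2) at 5 to 7 kb and 9.26 (8.23 to 10.4) at 7 to 10 kb. These last 2 intervals overlap that of all domains, so the limit of 10 kb marked no step in density.

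Chromosomes differed in how often their domains were touched, over wide intervals. The highest share was on chromosome 15, with 29 of 123 domains (23.6%, interval 16.4% to 32.1%). The lowest was on chromosome 10, with 10 of 128 (7.81%, 3.81% to 13.9%), followed by chromosome 18 with 8 of 98 (8.16%, 3.59% to 15.5%). Per length, the same chromosomes had 16.8 (11.5 to 23.7), 6.51 (3.36 to 11.4) and 5.43 (2.34 to 10.7) Kdm6bWT peak centres per Mb of domain. These 3 are the extremes of 19 chromosomes. Whether the same chromosomes also differed in Kdm6bWT peaks outside broad domains was not tested. The chromosomes dense in broad domains were not those most often touched: the share was 9.50% on chromosome 17 and 10.8% on chromosome 11.

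To see how many Kdm6bWT peaks the neighbourhood of the domains would give, the whole Kdm6bWT list was moved by 20, 40 and so on up to 200 kb in each direction. These 20 moves describe the local level and are not a chance test. The domains held 561 Kdm6bWT peak centres in place and a mean of 347 after the moves, a ratio of 1.62. Each of the 20 moved lists gave fewer than 561, between 249 and 470. The number of domains touched was 532 in place and 334.5 on average after moves (243 to 450). Domains therefore held more Kdm6bWT peaks than their surroundings, although the surroundings were themselves far above the autosomal level of 1.99 per Mb. The excess was not particular to broad domains. Over the same 20 moves the ratio was 1.85 for the next widest peaks and 2.02 for all peaks under 10 kb.

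The number inside was lower the farther the list was moved, up to 140 kb. Averaged over both directions, 468 centres lay in domains after moves of 20 kb, 428.5 after 40 kb, 341.5 after 100 kb, 296.5 after 140 kb, 309 after 160 kb and 263 after 200 kb. The ratio of observed to moved thus ranged from 1.20 at 20 kb to 2.13 at 200 kb. Moves of 200 to 1000 kb gave a ratio of 2.99. After moves of 20 kb, 7.69% of the centres inside a domain were still in the domain they came from. By 100 kb the number was 0. The next widest peaks had 291 centres in place and 227.5 after 20 kb. They were lowest at 123 after 160 kb and had 129.5 after 200 kb. The ratios were 1.28 at 20 kb and 2.25 at 200 kb. For all peaks under 10 kb the ratios were 1.45 and 2.58. Whether broad domains differ from narrower peaks in these ratios was not tested. How far width and grouping alter the number of moved peaks that land on marked bases was not tested either.

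**Figure D4:**
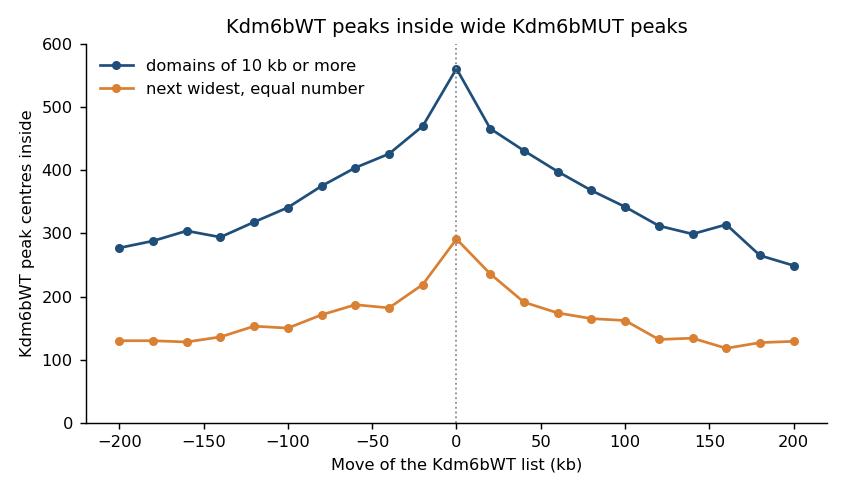
Number of Kdm6bWT peak centres (vertical axis) inside domains of 10 kb or more (dark) and inside the equally many next widest Kdm6bMUT peaks (orange) after moving the whole Kdm6bWT list by the distance shown (kb). Both curves peak at 0, at 561 and 291, and fall on either side.

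The ratio of observed to moved centres was smaller in large groups and in very wide domains. Domains that stood alone held 8.83 Kdm6bWT centres per Mb (7.26 to 10.6), and those in groups of 10 or more held 9.30 (7.44 to 11.5). The moved lists gave 4.25 and 7.19 per Mb, so the ratios were 2.08 and 1.29. At least 1 Kdm6bWT peak centre was found in 11.5% of the domains that stood alone and in the domains of 80.0% of the groups of 10 or more, which have more bases to hold it. In domains of 30 kb or more the density in place was 7.65 per Mb, lower than in the 3 classes of narrower domains though with overlapping intervals, against 7.25 after moves, a ratio of 1.06. There 42.9% of the centres found inside after moves of 20 kb had stayed in the same domain. After moves of 40 kb this share was 11.2%, and after 100 kb it was 0%. At 100 kb a mean of 40 centres still lay inside, against 42 in place. Moves of 200 kb gave a ratio of 1.31. The cause of the low ratio was not tested.

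Kdm6bWT peaks were spread about evenly between the edge and the centre of broad domains. Each was placed on a scale from 0 at the nearer edge to 1 at the middle of its domain, where an even spread puts 50% below 0.5. The median place was 0.49, and 288 of 561 centres (51.3%, interval 47.1% to 55.5%) lay below 0.5. The moved lists gave 47.2% to 53.4%. In 5 equal steps from edge to middle the numbers were 116, 115, 110, 102 and 118. Of the 574 Kdm6bWT peaks that touched a domain, 37 crossed its edge and 537 lay wholly inside. Peaks this short in domains this wide lie mostly inside by size alone. Whether moved lists cross edges as often was not tested.

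Kinds of peak or domain differed in place by less than their intervals. The share below 0.5 was 53.6% (47.2% to 59.9%) for Kdm6bWT peaks narrower than the autosomal median and 49.5% (43.8% to 55.2%) for the others. It was 55.0% (48.8% to 61.0%) in domains of 10 to 15 kb, 50.7% (42.3% to 59.0%) at 15 to 20 kb and 45.1% (36.8% to 53.6%) at 20 kb or more. All of these intervals include 50%. Domains that stood alone gave 52.7% and grouped domains 51.0%. On the lower-coordinate side of the domain's middle lay 46.0% (41.8% to 50.2%) of the centres.

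Kdm6bWT peaks were denser just inside the edge of a domain than just outside. Inside domains there were 9.74 centres per Mb in the first 1 kb from the edge, 11.1 from 1 to 2 kb, 9.87 from 2 to 3 kb, 8.42 from 3 to 5 kb and 9.55 deeper than 5 kb. Just outside, the density was 6.07 per Mb (4.43 to 8.12) in the first 1 kb and 5.55 (3.91 to 7.66) from 1 to 2 kb. The outer first 1 kb holds no other Kdm6bMUT peak, because the list has no gaps that small. Its interval overlaps that of the inner first 1 kb, 7.65 to 12.2 per Mb. From 1 to 2 kb the interval inside, 8.82 to 13.7 per Mb, lay above that outside.

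The flanks within 20 kb of a domain split by whether a narrower Kdm6bMUT peak lay there. On narrower peaks, over 44.1 Mb, the density was 9.02 per Mb (8.16 to 9.95), near that of the domains. Outside every Kdm6bMUT peak, over 56.1 Mb, it was 5.10 per Mb (4.52 to 5.73), and moved lists gave a mean of 5.13 there (3.67 to 7.36). On the narrower peaks of the flank the ratio of observed to moved was 1.61, as in the domains themselves, and off the peaks it was 0.993. Flank bases outside every Kdm6bMUT peak thus held Kdm6bWT peaks at the level of moved lists, still above the 1.99 per Mb of the autosomes.

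**Figure D5:**
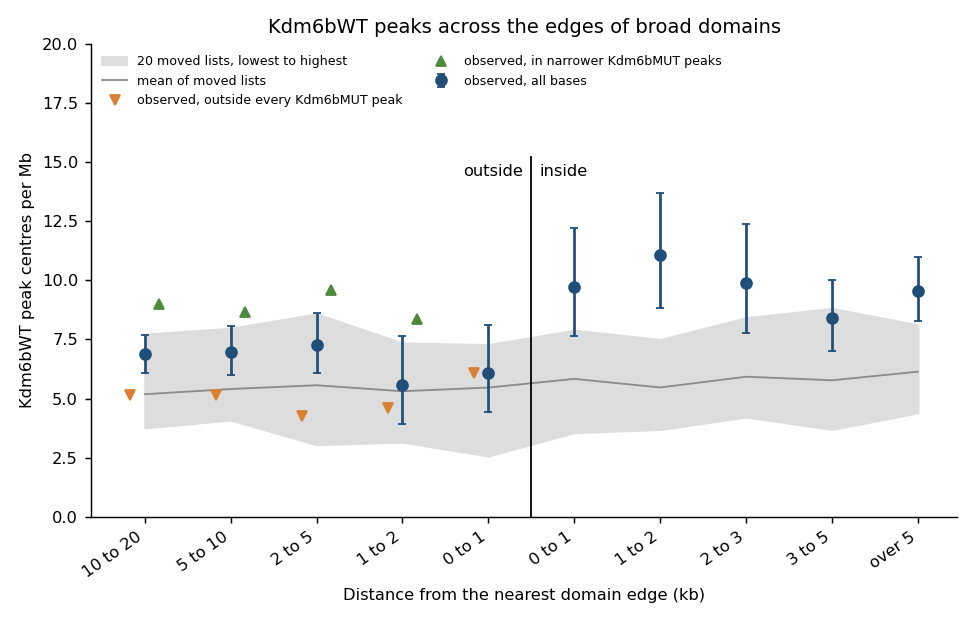
Kdm6bWT peak centres per Mb by distance from the nearest domain edge (kb), outside (left) and inside (right): all bases with 95% exact Poisson intervals (circles), flank bases off every Kdm6bMUT peak (down triangles) and on narrower ones (up triangles), with the range and mean of 20 moved lists in grey. Inside values lie between 8.42 and 11.1 per Mb. The grey range is that of all bases at each distance. Outside, the values for all flank bases and for those off every Kdm6bMUT peak both lie within it.

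The Kdm6bWT peaks in broad domains had widths close to those elsewhere. The 561 peaks had a median width of 535 bases (quartiles 322 and 1002), against 525 bases (323 and 976) for the 1470 in narrower Kdm6bMUT peaks and 461 bases (300 and 963) for the 2757 in none. A width of 1 kb or more was reached by 25.1% (21.6% to 28.9%), 24.1% (22.0% to 26.4%) and 23.4% (21.8% to 24.98%) of them. The list's smallest width, 300 bases, was that of 20.7%, 20.9% and 26.0%. Moved lists gave a median of 486 to 603.5 bases for the peaks that landed in domains, so the width of those in place was inside that range.

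No Kdm6bWT peak in a broad domain came near the domain's own width. The limit of 10 kb made this likely in advance. The upper quartile of Kdm6bWT width was 1002 bases in domains, 976 in narrower Kdm6bMUT peaks and 963 in none. The bases of a Kdm6bWT peak inside its domain made up a median of 3.34% of the domain (quartiles 2.18% and 6.11%, highest 23.9%). The longest of these peaks measured 2931 bases. In narrower Kdm6bMUT peaks Kdm6bWT peaks reached 7745 bases, and outside all of them 13768 bases. These maxima come from sets of unequal size, of 561, 1470 and 2757 peaks, and their difference was not tested. Median fold enrichments in the Kdm6bWT list were 3.85 in broad domains, 3.86 in narrower peaks and 3.83 in none. The highest values again lay elsewhere, with a fold of up to 6.48 in broad domains and up to 49.5 in narrower Kdm6bMUT peaks.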

How the data were processed

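The authors deposited 2 peak lists without headers, each from 1 H3K27me3 ChIP library called against input. Bowtie2 2.2.2, MACS2 and the build mm9 are named for the series, per the submitters' processing notes. For the caller, settings were not given in the sources used here. Each peak carries a fold enrichment (a ratio), a −log10 q and a whole-number score, all deposited by the authors. Depth is unknown, and the deposited values are compared within a list only.

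Widths, gaps, groups, overlaps and densities were computed with Python 3.11.15, numpy 2.4.6, pandas 2.3.3, scipy 1.17.1 and matplotlib 3.10.9. The overlap and placing code was tested on simulated data. A Kdm6bWT peak is inside a domain when its centre is, and touches it when they share at least 1 base. Lengths by distance from an edge were counted every 100 bases. In moved lists 5 to 29 centres passed beyond the peaks at the chromosome ends. Unassembled sequence was not masked.

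Shares have Clopper-Pearson and densities exact Poisson intervals. Named regions are the 5 widest domains, the 5 with most Kdm6bWT centres, the 5 widest untouched, and the 3 largest and 3 longest groups. Members, measures and lists were chosen with earlier results of these data known. Coordinates were not converted, and the reference tables, on another build, were not used.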

Additional observations from a re-analysis of the deposited data

How the results depend on the processing

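No paired analysis was possible because a single ChIP library stands for each injection. Of 36 values under other settings, 24 stayed within 1.5 times the reported value (ratios), its 95% interval (shares) or its quartiles (widths), and 12 did not. The share of domains touched, 14.0%, was 11.8%, 18.7% and 21.9% with width limits of 8, 15 and 20 kb. It was 7.37% for Kdm6bWT peaks scoring at least the list median of 13 and 7.79% for those of at least 500 bases; both leave fewer Kdm6bWT peaks by construction. The ratio to moved lists, 1.62, was 2.99 with moves of 200 to 1000 kb and 1.06 for domains of 30 kb or more. The cause was not tested. The limit of 1.5 times is wide for this ratio. Values from 1.20 (moves of 20 kb only) to 2.13 (moves of 200 kb only) counted as within it. So did 1.31 with a width limit of 20 kb and 1.40 with moves of 20 to 100 kb. Staying within the limit therefore does not show that the size of the excess is stable. The share of Kdm6bWT centres placed below 0.5, 51.3%, moved to the other side of 50% in 4 settings: 47.9% and 45.1% with limits of 15 and 20 kb, 49.7% for Kdm6bWT peaks of at least 500 bases and 49.2% for those wholly inside; the interval of the reported value includes 50%. The share of domains in groups was 56.5% and 84.9% with gaps below 20 and 100 kb, and 84.2% of 8782 domains after merging peaks less than 3 kb apart. It exceeded that of the equally many next widest peaks each time (35.9%, 75.1% and 70.2%). The ratio of chromosome densities fell to 2.17 without chromosome 19. The 30 kb limit, the chromosome 19 setting, single moves of 20 and 200 kb and the other widths of Kdm6bWT peaks were chosen after seeing the data. Depth limits how many Kdm6bWT peaks could be detected, so a domain without one is not shown to lack the mark.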

Other observations

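On the X chromosome 48 Kdm6bMUT peaks reached 10 kb, or 0.297 per Mb (95% exact interval 0.219 to 0.394), against 0.448 on chromosome 19 and 1.58 over the autosomes. Their median width was 13711 bases, and the widest measured 28673 bases. Of these, 40 (83.3%) lay in groups. Kdm6bWT peaks touched 11 of the 48 (22.9%, 12.0% to 37.3%), with 15.8 centres per Mb (7.88 to 28.2). In place 11 Kdm6bWT peak centres lay in them, and the 20 moved lists gave a mean of 8.5, between 5 and 14.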
